A study of Mus musculus with 8 samples.

Results

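The dual-specificity phosphatases and the Sprouty and Spred proteins are the cell's own brakes on MAP kinase signalling, and RNA of 10 of their genes was followed through the first 8 days of factor-driven reprogramming of mouse fibroblasts. The genes are the phosphatases Dusp1, Dusp4, Dusp5, Dusp6, Dusp10 and Dusp15, the Sprouty genes Spry1, Spry2 and Spry4, and Spred1. They were chosen by name, though with earlier results of these data known, and found by their Ensembl identifiers among the 32108 genes of the table. All 10 were present, and all 10 passed the filter on low values.

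In this pathway a growth factor receptor activates RAS, and RAS switches on a chain of kinases that ends with phosphorylated ERK. Active ERK drives transcription of genes that then restrain it. The MAP kinase phosphatases remove the activating phosphates from ERK, JNK or p38, each with its own preference and location in the cell. Sprouty proteins act higher up, between the receptor and the RAF kinases, and Spred proteins bring the RAS inhibitor neurofibromin to the membrane. Because several of these genes are transcribed when ERK is active, their RNA is often read as a record of recent signalling. The amounts of protein and of phosphorylated kinase were not analysed here.

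The cells were 4F2A MEFs, embryonic fibroblasts in which doxycycline induces a cassette of Oct4, Sox2, Klf4 and c-Myc that sits in the Col1a1 locus. According to the labels they came from male, homozygous embryos of 13.5 dpc, and every group received 2 µg/mL doxycycline from day 0 in medium with 15% serum replacement and 1000 U/mL LIF, renewed each day. The groups D2, D4, D6 and D8 were harvested on days 2, 4, 6 and 8 and hold 2 libraries each. All are titled controls, no culture without doxycycline and none from before induction was used here, and time in culture cannot be told apart from time on the factors. The labels do not say whether the replicates came from separate embryos or cultures, so p-values measure only how far these samples spread, and that spread may be technical.

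Each library held 19409936 to 20161021 counted reads, and values are in CPM, reads per 1000000 counted reads. RNA of the cassette factors was present throughout, with Pou5f1 at 112 to 286 CPM and Klf4 at 326 to 611 CPM, while Nanog, which marks established pluripotency, stayed at 0.252 to 0.569 CPM. Cassette and chromosomal copies were not separated. Xist stood at 702 to 1238 CPM and the Y-linked Ddx3y at no more than 0.333 CPM, which goes against the label of male cells. The fibroblast markers were abundant, with a summed level of 26230 to 26240 CPM on day 2 and 31710 to 34840 CPM on day 8.

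All 10 genes changed between days 2 and 4, and they split into opposite directions. The ERK-directed phosphatase gene Dusp6, all 3 Sprouty genes, Spred1, Dusp1 and Dusp15 rose, and Dusp4, Dusp5 and Dusp10 fell. In this comparison 62.5% of all 15358 tested genes were called at an adjusted p under 0.05 (limma), 40.9% as higher and 21.7% as lower, so a call alone does not set the genes apart. The median change of the 10 genes was 0.80 on the log2(CPM + 1) scale, against 0.11 over all tested genes. Median-of-ratios scaling and quantile normalization, the other scalings tried, moved that overall median to 0.01 and -0.03 and the share of higher genes among the called from 65.3% to 52.6% and 47.1%. The direction of each of the 10 genes from day 2 to 4 was the same under both. In bulk RNA, fewer cells of a type and less RNA per cell cannot be told apart.

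**Figure D1:**
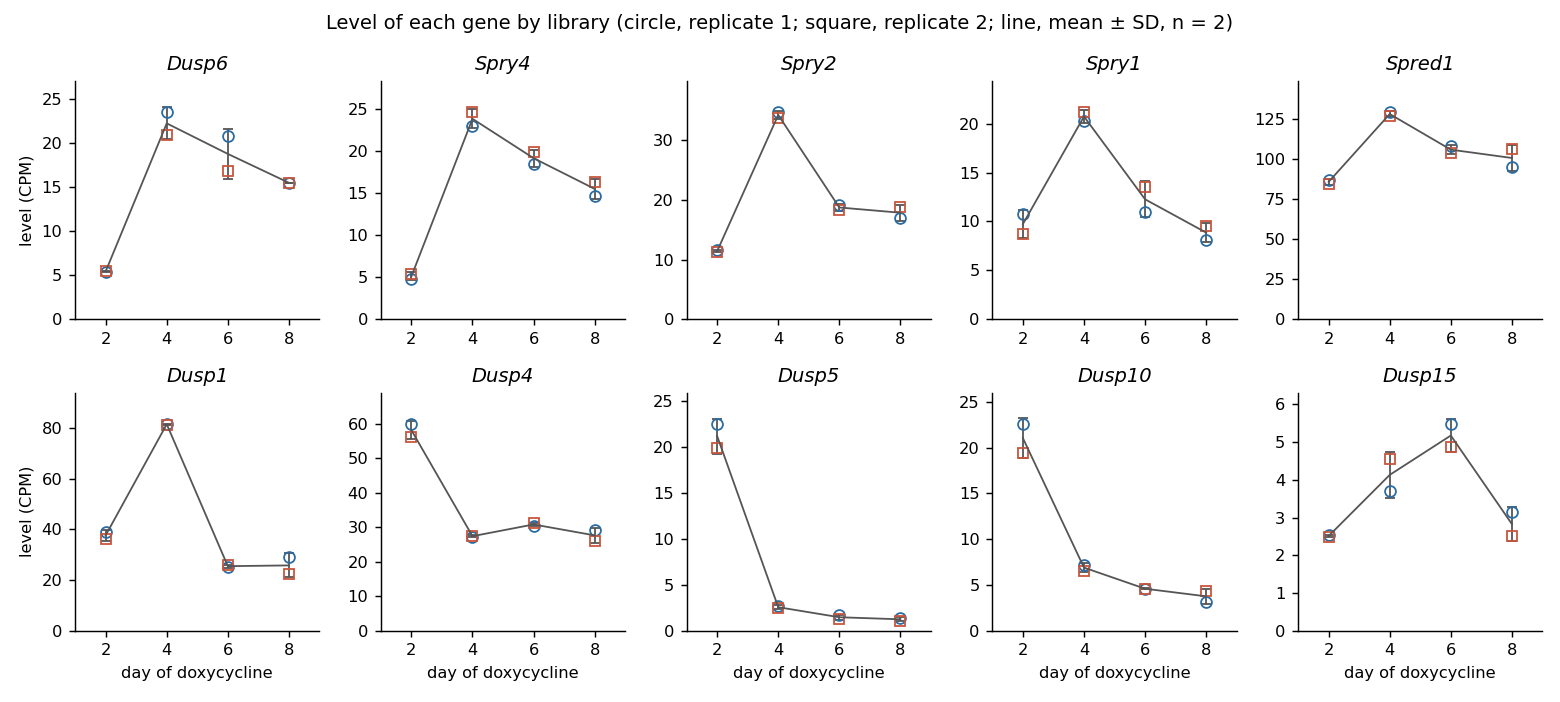
The level of each of the 10 genes in CPM (vertical axes, each starting at 0) against the day of doxycycline, with circles for replicate 1, squares for replicate 2, and lines for the mean ± SD of the 2 libraries. Dusp6 and Spry4 are lowest on day 2 and highest on day 4, Dusp4, Dusp5 and Dusp10 are highest on day 2, and Dusp1 stands above all other days on day 4.

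Dusp6 encodes MKP-3, a cytoplasmic phosphatase that is selective for ERK and is among the best known ERK target genes. Its gene lies on mm10 chromosome 10 at 99263231 to 99267489, on the plus strand. The libraries held 5.41 and 5.43 CPM on day 2, 23.5 and 21.0 on day 4, 20.8 and 16.8 on day 6, and 15.5 and 15.5 on day 8. Both day 2 libraries were thus the lowest, and no libraries of neighbouring days overlapped in the order D4, D6, D8, D2. Mean Dusp6 was 4.11 times as high on day 4 as on day 2, a log2 change of 1.85 ± 0.103 (SE, limma adjusted p = 5.12e-09). Its later steps were small, -0.24 from day 4 to 6 (adjusted p = 0.0849) and -0.25 from day 6 to 8 (adjusted p = 0.139). On day 8 it was still 2.86 times its day 2 level (log2 change 1.36, adjusted p = 6.12e-08).

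All 3 Sprouty genes rose to day 4 and fell from day 4 to 6. Spry4, on chromosome 18 at 38586247 to 38601415 on the minus strand, encodes a Sprouty protein that restrains RAS to ERK signalling downstream of FGF and VEGF receptors. It held 4.76 and 5.43 CPM on day 2, 23.1 and 24.7 on day 4, 18.5 and 19.9 on day 6, and 14.7 and 16.4 on day 8. As with Dusp6, day 2 was lowest, day 4 highest, and no neighbouring days overlapped. Its mean rose 4.69-fold to day 4 (log2 change 2.03 ± 0.0934 SE, adjusted p = 8.79e-10) and was 3.05 times the day 2 level on day 8 (1.44, adjusted p = 1.36e-08).

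Spry2, on chromosome 14 at 105891947 to 105896819 on the minus strand, is a widely used Sprouty gene whose protein binds GRB2 and the ubiquitin ligase CBL. It held 11.6 and 11.3 CPM on day 2, 34.8 and 33.8 on day 4, 19.2 and 18.3 on day 6, and 16.9 and 18.8 on day 8. Day 4 stood well above every other library, while days 6 and 8 overlapped. The rise to day 4 was 1.51 ± 0.0782 (SE) on the log2 scale (adjusted p = 2.79e-09), and Spry2 then fell by 0.84 to day 6 (adjusted p = 4.61e-06). It ended 1.57 times as high on day 8 as on day 2 (log2 change 0.60, adjusted p = 1.28e-05).

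Spry1, on chromosome 3 at 37639947 to 37644598 on the plus strand, is the Sprouty gene best known for restraining RET signalling in the developing kidney. It held 10.8 and 8.69 CPM on day 2, 20.3 and 21.2 on day 4, 10.97 and 13.6 on day 6, and 8.14 and 9.56 on day 8. Day 4 was highest, both day 6 libraries lay above both of day 2, and the libraries of days 2 and 8 overlapped. Spry1 rose by 1.02 ± 0.121 (SE) to day 4 (adjusted p = 7.96e-06) and fell by 0.72 to day 6 (adjusted p = 0.00054). The difference between days 8 and 2 was -0.12 (adjusted p = 0.394), and it was called as lower under quantile normalization (-0.50, adjusted p = 0.00351). Within libraries the CPM ratio of Spry2 to Spry1 was 1.07 and 1.30 on day 2, 1.71 and 1.60 on day 4, 1.75 and 1.35 on day 6, and 2.08 and 1.97 on day 8. The lower day 6 ratio was close to the higher one of day 2. The ratio is not corrected for gene length, and its change between days was not tested.

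Spred1, on chromosome 2 at 117121374 to 117182279 on the plus strand, encodes the Spred protein that carries neurofibromin to the membrane. It held 87.2 and 84.4 CPM on day 2, 129.5 and 127 on day 4, 108 and 104 on day 6, and 94.95 and 106.7 on day 8. The order of days was that of Spry2, with overlap only between days 6 and 8, but the range was narrower. Its mean on day 4 was 1.49 times that of day 2 (log2 change 0.57 ± 0.0582 SE, adjusted p = 1.84e-06), and it fell by 0.27 to day 6 (adjusted p = 0.00268). The day 8 level was 1.17 times that of day 2 (0.23, adjusted p = 0.0034), a call that was lost under median-of-ratios scaling (0.04, adjusted p = 0.583) and without replicate 2 of day 8 (0.14, adjusted p = 0.0527).

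Dusp1 had a peak on day 4 alone. It encodes MKP-1, a nuclear phosphatase that acts on JNK and p38 as well as ERK, and it is an immediate-early gene, transcribed within minutes of serum or stress. The libraries held 39.2 and 36.2 CPM on day 2, 81.7 and 81.4 on day 4, 25.1 and 25.9 on day 6, and 29.2 and 22.5 on day 8. Both day 4 libraries were above all others, and days 6 and 8 overlapped below day 2. Dusp1 rose by 1.09 ± 0.0944 (SE) to day 4 (adjusted p = 3.97e-07) and fell by 1.64 to day 6 (adjusted p = 1.08e-07). Unlike Dusp6, it was lower on day 8 than on day 2, at 0.685 times the level (log2 change -0.54, adjusted p = 0.000187). Its GENCODE model, on chromosome 17 at 26505590 to 26562128 on the minus strand, overlaps Ergic1 on the other strand by 640 bases and the pseudogene Gm8225, also on the other strand, by 956 bases. Ergic1 stood at 249 to 360 CPM and Gm8225 at 24.4 to 37.9 CPM. The strand setting of the counting is not given in the sources used here, so reads of the overlaps cannot be assigned with certainty.

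Dusp5 moved the opposite way and by more than any other of the 10 genes. It encodes a nuclear phosphatase selective for ERK, and its gene lies on chromosome 19 at 53529109 to 53542431 on the plus strand. The libraries held 22.5 and 19.8 CPM on day 2, 2.70 and 2.43 on day 4, 1.67 and 1.28 on day 6, and 1.39 and 1.10 on day 8. Days 6 and 8 overlapped, and both lay below day 4, which lay far below day 2. Its mean was 8.25 times as high on day 2 as on day 4 (log2 change -2.63 ± 0.126 SE, adjusted p = 1.3e-09) and 17.0 times as high as on day 8 (-3.30, adjusted p = 6.99e-11). The further fall of 0.53 from day 4 to 6 (adjusted p = 0.00531) was called in 15 of 16 alternatives, and without replicate 2 of day 6 the change was -0.42 (adjusted p = 0.0528). The day 8 values rest on 21.5 to 27 reads a library.

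Dusp4 encodes MKP-2, a nuclear phosphatase of ERK, JNK and p38, on chromosome 8 at 34807297 to 34819894 on the plus strand. It held 60.1 and 56.3 CPM on day 2, 27.3 and 27.6 on day 4, 30.5 and 31.2 on day 6, and 29.2 and 26.1 on day 8. After day 2 it stayed within 26.1 to 31.2 CPM. Mean Dusp4 was 2.12 times as high on day 2 as on day 4 (log2 change -1.06 ± 0.0687 SE, adjusted p = 2.55e-08), and the step from day 4 to 6 was 0.16 (adjusted p = 0.0792).

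The start sites of Dusp1, Dusp5 and Dusp6 are shown because these phosphatase genes took 3 different courses, a day 4 peak, a fall and a lasting rise. The bases are the 250 upstream of the RefSeq start in build GRCm38.p6, read in the direction of transcription. They come from chr17:26508473-26508722 (minus strand), chr19:53528895-53529144 (plus strand) and chr10:99262981-99263230 (plus strand). Capitals mark a cyclic AMP response element (CRE, TGACGTCA), which CREB family factors bind, in Dusp1, and 2 adjacent CArG boxes, the kind of element serum response factor binds, in Dusp5.
Dusp1: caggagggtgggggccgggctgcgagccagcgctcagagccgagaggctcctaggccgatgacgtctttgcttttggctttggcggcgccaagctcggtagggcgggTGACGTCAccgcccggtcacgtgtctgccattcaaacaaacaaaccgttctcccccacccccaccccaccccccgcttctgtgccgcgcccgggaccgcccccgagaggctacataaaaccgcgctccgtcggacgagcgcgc
Dusp5: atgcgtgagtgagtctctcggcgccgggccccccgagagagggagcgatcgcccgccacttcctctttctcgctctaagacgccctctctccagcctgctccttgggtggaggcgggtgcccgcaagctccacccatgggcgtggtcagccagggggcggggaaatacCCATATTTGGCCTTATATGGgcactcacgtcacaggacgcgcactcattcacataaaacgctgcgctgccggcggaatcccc
Dusp6: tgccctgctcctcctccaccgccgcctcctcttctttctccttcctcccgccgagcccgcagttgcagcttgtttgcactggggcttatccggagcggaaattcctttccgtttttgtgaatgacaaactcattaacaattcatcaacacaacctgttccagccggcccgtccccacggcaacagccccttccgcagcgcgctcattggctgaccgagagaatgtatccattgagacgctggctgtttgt
Counting -1 as the base before the start, the CRE of Dusp1 lies at -143 to -136 and the CArG boxes of Dusp5 at -82 to -73 and -72 to -63. The search covered both strands of 300 bases, 250 before and 50 after each start. It sought the CRE, the CArG box, the AP-1 site and CCGGAA, a 6-base form of the ETS core. Other ETS sites were not searched. Of 32851 RefSeq promoters, 1.79% held the CRE, 1.63% a CArG box, 5.20% the AP-1 site and 14.9% CCGGAA. Of the 10 genes, 7 were searched (Dusp1, Dusp5, Dusp6, Dusp10, Spry1, Spry2 and Spred1). Dusp4 and Dusp15 had no promoter in the set used, and Spry4 was left out of the search, so its promoter is not described. Among the 7, besides the matches shown only Spry2 had another, CCGGAA at 33 to 38 after the start. No match among these motifs was found in the Dusp6 window, which says nothing of other ETS sites, and a match describes letters, not binding.

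Dusp10 and Dusp15 are the members least tied to ERK. Dusp10 encodes MKP-5, which acts on JNK and p38, on chromosome 1 at 184013302 to 184075636 on the plus strand. It held 22.6 and 19.5 CPM on day 2, 7.24 and 6.57 on day 4, 4.61 and 4.58 on day 6, and 3.17 and 4.36 on day 8. The days did not overlap, and each stood below the day before. Dusp10 fell by 1.48 ± 0.127 (SE) to day 4 (adjusted p = 3.82e-07) and by a further 0.50 to day 6 (adjusted p = 0.00808), and its day 2 mean was 5.59 times that of day 8. With no filter on low values the change from day 4 to 6 was still -0.50, but it was not called (adjusted p = 0.0637).

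Dusp15 encodes VHY, a small atypical phosphatase that lacks the MAP kinase binding domain, on chromosome 2 at 152940997 to 152951698 on the minus strand. It held 2.53 and 2.49 CPM on day 2, 3.70 and 4.56 on day 4, 5.48 and 4.86 on day 6, and 3.14 and 2.51 on day 8. It was highest on day 6, and days 2 and 8 overlapped. Dusp15 rose by 0.54 ± 0.128 (SE) to day 4 (adjusted p = 0.00239) and fell by 0.69 from day 6 to 8 (adjusted p = 0.00701). That last change kept its direction but was not called without replicate 1 of day 6 (-0.62, adjusted p = 0.0563), without replicate 2 of day 8 (-0.57, 0.0615) and with no filter on low values (-0.69, 0.0758). The difference between days 8 and 2 was 0.12 (adjusted p = 0.419) and turned to -0.31 under quantile normalization (adjusted p = 0.045). The gene had 49 to 107 reads a library.

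After day 4 the changes ran downward. From day 4 to 6, 7 of the 10 fell and 0 rose, where 37.7% of all tested genes were called, 12.6% as lower and 25.2% as higher. The 7 were Dusp1, Dusp5, Dusp10, Spry1, Spry2, Spry4 and Spred1. The change of Spry4 was -0.30 (adjusted p = 0.0223). It kept its direction but was not called without replicate 2 of day 4 (-0.26, adjusted p = 0.121), without replicate 1 of day 6 (-0.25, 0.144) and with no filter (-0.30, 0.0657). Dusp6, whose change missed the threshold, was called as lower under both other scalings (adjusted p = 0.0247 and 0.0288) and without replicate 1 of day 6 (0.0245). The steps to and from day 4 share the day 4 libraries, so a high or low value there moves both.

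From day 6 to 8, 2 of the 10 fell, Dusp15 and Spry1, and 0 rose, where 9.11% of tested genes were called, 4.39% as lower and 4.72% as higher. The fall of Spry1 by 0.43 (adjusted p = 0.0463) was called in 8 of 16 alternatives, with adjusted p from 0.0406 to 0.267. Among single libraries, the call was lost without replicate 2 of day 6 (0.267), replicate 1 of day 8 (0.246) or replicate 2 of day 8 (0.0693). Between days 2 and 8, 8 of the 10 differed, 4 higher and 4 lower, where 70.4% of tested genes were called, 47.3% as higher and 23.1% as lower. Dusp6, Spry2, Spry4 and Spred1 were higher on day 8, and Dusp1, Dusp4, Dusp5 and Dusp10 were lower. The median change of the 10 over this span was -0.00, with values spread from -3.30 in Dusp5 to 1.44 in Spry4.

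**Figure D2:**
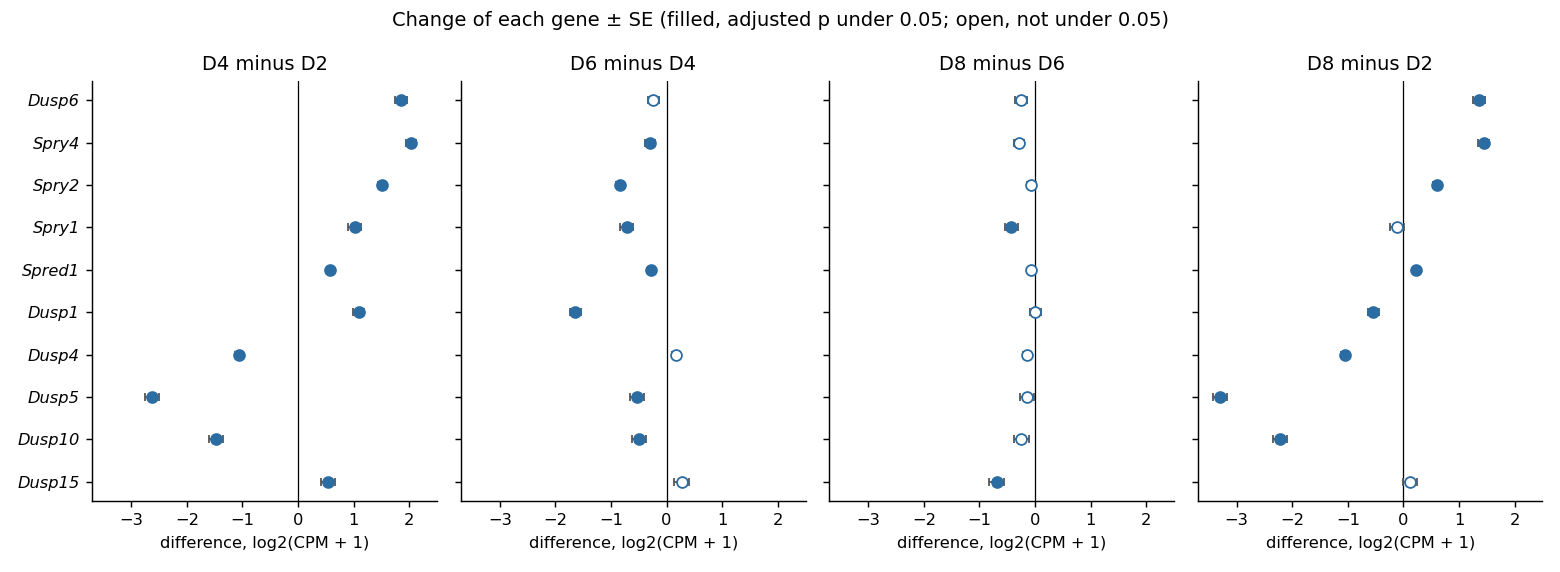
The difference of mean log2(CPM + 1) between 2 days (horizontal axes) for each of the 10 genes, in 4 panels by pair of days, with bars for the SE from limma and filled points for an adjusted p under 0.05. All 10 points are filled from day 2 to 4, 7 from day 4 to 6, 2 from day 6 to 8, and 8 from day 2 to 8, where Dusp5 lies farthest left at -3.30.

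Day 4 was also set against the mean of the other 3 days. Here 8 of the 10 genes were called, 6 higher and 2 lower, beside 43.3% of all tested genes, 20.2% higher and 23.1% lower. Dusp1 stood out most on day 4, by 1.46 (adjusted p = 3.74e-08), followed by Spry2 (1.08), Spry4 (0.97), Spry1 (0.96), Dusp6 (0.86) and Spred1 (0.40). Dusp4 was lower by 0.41 and Dusp5 by 0.48, and Dusp10 (-0.08, adjusted p = 0.561) and Dusp15 (0.23, adjusted p = 0.0915) missed the threshold. The mean of the other days includes day 2, and the calls of Dusp4 and Dusp5 rest mainly on their high day 2. Mean Dusp5 was 2.56 CPM on day 4, above days 6 (1.47) and 8 (1.25). Mean Dusp4 was 27.4 CPM on day 4 and 27.7 on day 8. An F test over the 4 days (limma) called all 10 genes, beside 80.4% of all tested genes.

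Cell type markers moved over the same days. The summed level of the 12 fibroblast markers was 26230 to 26240 CPM on day 2 and 41450 to 44810 on day 4. Collagen genes made up most of this sum on both days. Of the 12, 9 were higher and 3 lower on day 4, beside 40.9% higher and 21.7% lower over all tested genes. Epithelial markers summed to 65.9 to 68.3 CPM on day 2 and 199 to 214 on day 8. Of 6 tested, 4 were higher and 1 lower on day 8 than on day 2, beside 47.3% and 23.1% over all tested genes. Krt8 went from 2.40 to 125 CPM and Krt19 from 31.1 to 4.14 CPM between these days. Macrophage and leukocyte markers summed to 62.7 to 99.0 CPM in all libraries, endothelial markers to 131 to 184, and pluripotent cell markers to 2.39 to 9.17. Neural markers summed to 497 to 503 CPM on day 2 and 217 to 222 on day 8. Tek and Flt1 made up most of the endothelial sum, and Fgf4 most of the pluripotent sum. Nes, Tubb3 and Map2 made up most of the neural sum. Of the 9 endothelial, 9 neural and 10 pluripotent cell markers, 4, 5 and 9 were below the filter on low values. No marker was at 0 in every library, and the share of mitochondrial reads was 4.53% and 4.59% on day 2 and 5.92% to 6.78% later. The part of these shifts in the changes of the 10 genes was not tested.

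Levels of different genes can be compared once divided by gene length, here the bases of all exons of the GENCODE model. On day 2 Dusp4 was the highest of the 10, at 21.2 CPM per kb, ahead of Spred1 at 12.7 and Dusp1 at 11.4. By day 4 Dusp1 led at 24.6 CPM per kb, followed by Spred1 at 18.9 and Spry2 at 16.4, and Dusp4 had dropped to 10.02. Dusp15 was lowest on day 2 at 0.572 CPM per kb, and Dusp5 was lowest on day 8 at 0.504. Per length, Dusp6 at its day 4 peak reached 7.10 CPM per kb, below Spry2 and above Spry4 at 5.02.

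The make-up of the group turned over between days 2 and 4. Dusp4, Dusp5 and Dusp10 gave 50.8% and 49.8% of the summed CPM per kb of the 10 genes on day 2, but 14.3% and 14.2% on day 4 and 20.7% to 22.4% later. The Sprouty genes rose from 13.5% and 13.6% on day 2 to 30.3% and 30.9% on day 4, and stayed between 25.6% and 29.1%. Dusp6 went from 2.28% and 2.47% to 7.99% and 7.20%. These are descriptions without a test, and a share falls when another gene rises.

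**Figure D3:**
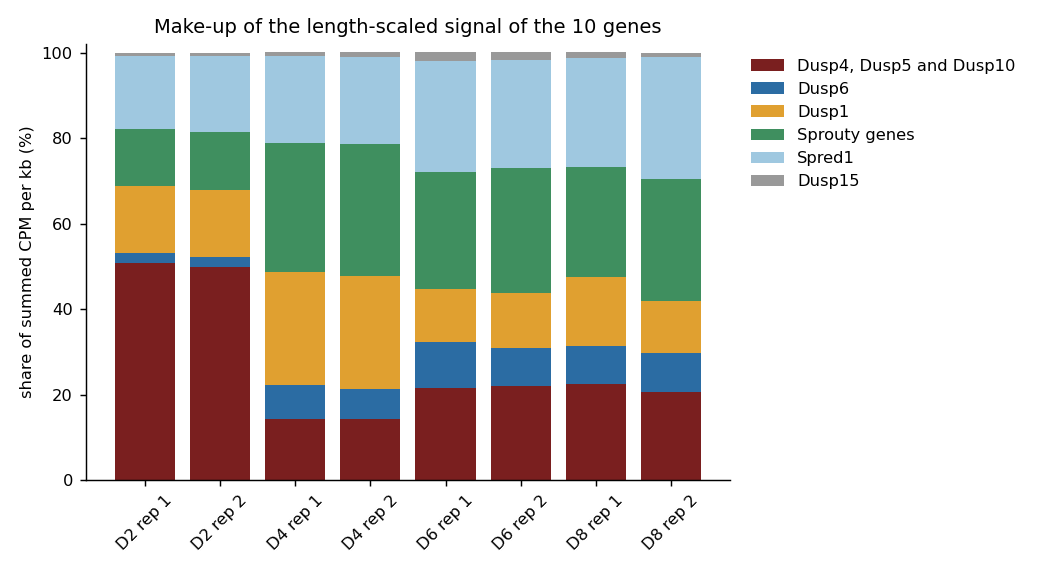
The share of each set of genes in the summed CPM per kb of the 10 genes (vertical axis, percent) as stacked bars for each of the 8 libraries. The set of Dusp4, Dusp5 and Dusp10 takes 49.8% to 50.8% of the day 2 bars and 14.2% to 22.4% of all later ones.

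In ratios taken inside each library, the ERK-selective phosphatases Dusp6 and Dusp5 changed places after day 2. The CPM ratio of cytoplasmic Dusp6 to nuclear Dusp5 was 0.240 and 0.274 on day 2, 8.72 and 8.62 on day 4, and 11.1 to 14.0 on days 6 and 8. The ratio of Dusp6 to Dusp4 was 0.0900 and 0.0964 on day 2 and 0.531 to 0.863 afterwards, so Dusp4 stayed above Dusp6 in every library. A single scaling factor per library cancels in these ratios, and they are not corrected for gene length. No library of days 4, 6 or 8 came near the day 2 values.

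The relatives of these genes followed both courses. Of 4 other MAP kinase phosphatases that passed the filter, 1 rose and 3 fell from day 2 to 4, beside 40.9% higher and 21.7% lower over all tested genes. Their median change was -0.86, beside 0.11 over all tested genes. The JNK-directed Dusp16 went from 34.6 ± 1.74 to 17.0 ± 1.22 CPM (SD, n = 2, log2 change -0.98, limma adjusted p = 2.04e-07), Dusp8 fell by 0.90 (adjusted p = 3.06e-06), and the ERK-directed Dusp9 fell by 0.83 (adjusted p = 0.000349). Dusp7, a cytoplasmic and ERK-directed relative of Dusp6, rose by 0.24 (adjusted p = 0.00531) and fell again by 0.40 to day 6 (adjusted p = 0.000298). Its rise was lost under median-of-ratios scaling (0.13, adjusted p = 0.0839) and quantile normalization (0.09, adjusted p = 0.214). Dusp2 was at most 0.154 CPM and was not tested.

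Among 14 tested atypical and other dual-specificity phosphatases, 7 rose and 4 fell from day 2 to 4, beside 40.9% higher and 21.7% lower over all tested genes. The split became 6 and 5 under median-of-ratios scaling and 5 and 6 under quantile normalization. Dusp14 fell from 136 ± 7.83 to 50.4 ± 2.35 CPM (SD, n = 2, log2 change -1.42, adjusted p = 4.45e-10) and stood at 51.3 on day 8, and Dusp3 fell by 1.00 (adjusted p = 8.19e-09). Dusp22 and Dusp11 rose, by 0.55 (adjusted p = 4.29e-05) and 0.33 (adjusted p = 3.28e-05). Both other Spred genes rose with Spred1, Spred2 by 0.43 (adjusted p = 5.04e-05) and Spred3 by 0.40 (adjusted p = 0.000617).

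**Figure D4:**
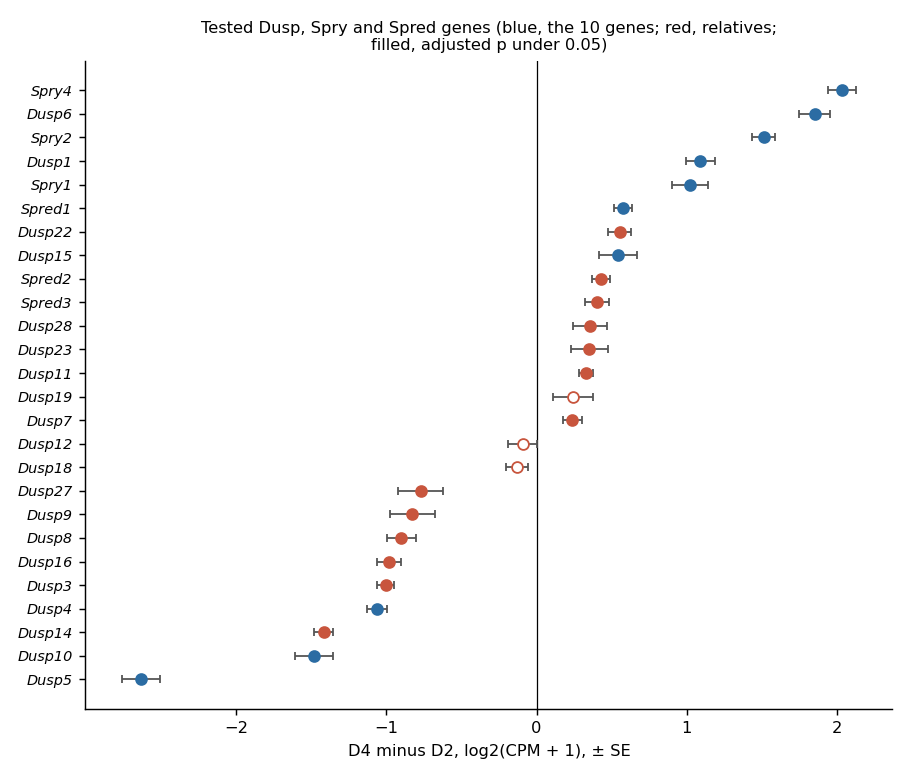
The difference of mean log2(CPM + 1) between day 4 and day 2 (horizontal axis) with its SE for 26 tested Dusp, Spry and Spred genes, in blue for the 10 genes and in red for 16 relatives, filled where the adjusted p is under 0.05. Spry4 lies farthest right at 2.03 and Dusp5 farthest left at -2.63, and of the relatives 7 are higher and 6 lower.

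Other genes that report ERK output also moved in both directions. Of 14 tested, 7 rose and 7 fell from day 2 to 4, with a median of -0.17 and the same counts under both other scalings. Over all tested genes, 40.9% were higher and 21.7% lower. The PEA3 family factors, which are FGF and ERK target genes, rose together. Etv1 went from 4.51 ± 0.356 to 20.2 ± 0.827 CPM (SD, n = 2, log2 change 1.94, adjusted p = 8.06e-10), Etv5 rose by 1.03 (adjusted p = 5.13e-08) and Etv4 by 0.99 (adjusted p = 7.93e-07). Their later courses differed in value, with Etv5 at 65.8 CPM on day 8 and Etv4 at 14.7, a fall of 0.59 from day 6 (adjusted p = 0.00291). The AP-1 subunit gene Fosl1 fell with Dusp5, from 30.05 ± 1.11 to 7.72 ± 0.526 CPM (SD, n = 2, log2 change -1.83, adjusted p = 2.68e-09). Egr3 fell by 3.23 (adjusted p = 8.12e-11), Phlda1 by 0.62 (adjusted p = 5.16e-05) and the chromatin factor gene Hmga2 by 0.89 (adjusted p = 1.04e-07). Ccnd1, which encodes cyclin D1, rose by 0.27 (adjusted p = 0.00129).

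The immediate-early factors Fos and Egr1 had the day 4 peak of Dusp1 in steeper form. Fos held 2.43 and 3.44 CPM on day 2, 129 and 131 on day 4, 4.97 and 4.96 on day 6, and 4.07 and 4.15 on day 8. Egr1 held 54.4 and 44.7 CPM on day 2, 394 and 399 on day 4, 45.4 and 41.5 on day 6, and 48.8 and 51.6 on day 8. Both day 4 libraries stood above all the others in each gene. From day 2 to 4 the log2 change was 5.07 for Fos (adjusted p = 2.51e-12) and 2.98 for Egr1 (adjusted p = 5.90e-12). Of the 12 immediate-early factors tested, 5 rose and 5 fell from day 2 to 4, beside 40.9% higher and 21.7% lower over all tested genes. The largest change among them was that of Atf3, which fell (log2 change -5.31, limma adjusted p = 5.17e-12). From day 4 to 6, 10 of the 12 fell and 0 rose, beside 12.6% lower and 25.2% higher over all tested genes.

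**Figure D5:**
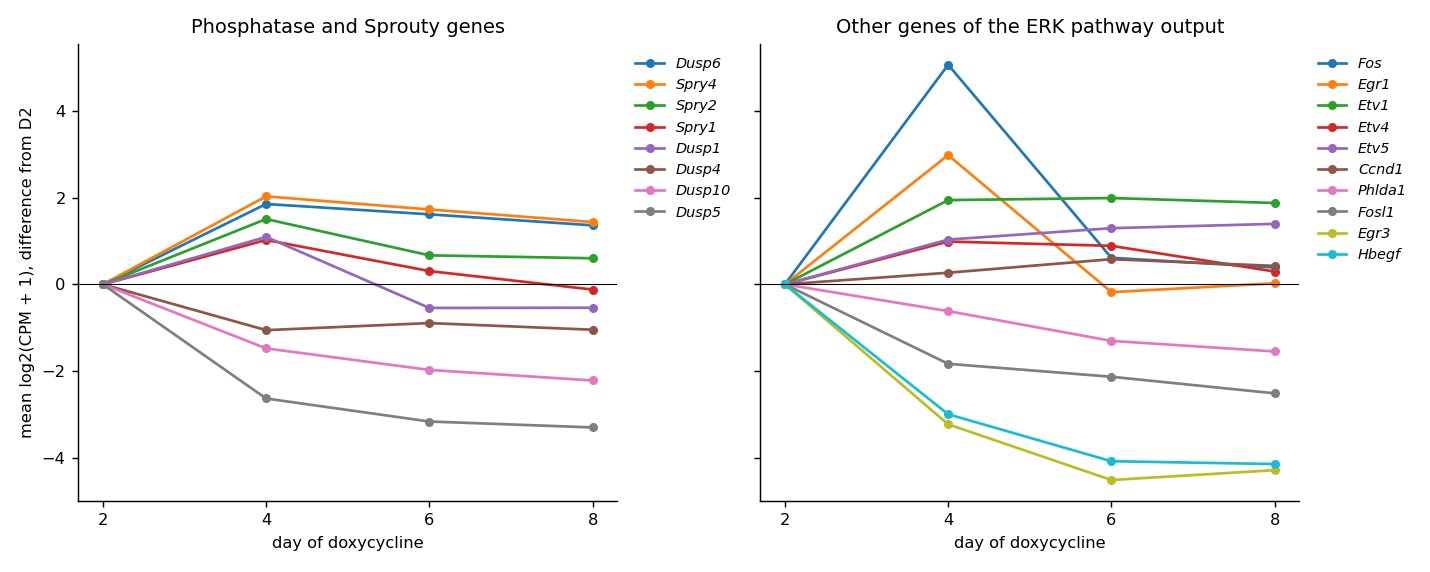
The mean of log2(CPM + 1) as a difference from day 2 (vertical axis) against the day of doxycycline for 8 of the 10 genes (left) and 10 other genes of the ERK pathway or its output (right). On the left Dusp6 and Spry4 stay above 0 after day 4 and Dusp5 falls to -3.30, and on the right Fos and Egr1 rise to 5.07 and 2.98 on day 4 alone while Etv1 and Etv5 stay high.

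Of the kinase genes, Mapk3, which encodes ERK1, went from 141 ± 4.04 to 153 ± 2.77 CPM by day 4 (SD, n = 2, log2 change 0.12, adjusted p = 0.0455) and rose by 0.51 from day 4 to 6 (adjusted p = 4.42e-06). Its first step was not called under median-of-ratios scaling (0.01, adjusted p = 0.852) or quantile normalization (0.12, adjusted p = 0.0548). Of 29 tested genes from RAS to ERK, 9 rose and 15 fell from day 2 to 4, with a median of -0.14. Over all tested genes, 40.9% were higher and 21.7% lower in this step. Rras2, a RAS-related GTPase gene, fell by 1.62 (adjusted p = 1.03e-09) and Map2k1, which encodes the ERK kinase MEK1, by 0.84 (adjusted p = 8.88e-08), while the scaffold gene Ksr1 rose by 0.97 (adjusted p = 1.23e-05). Of 17 tested JNK and p38 genes, 5 rose and 4 fell, with a median of 0.05 that turned below 0 under both other scalings (-0.0535 and -0.065).

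Upstream, receptor and ligand genes moved in both directions, beside 40.9% higher and 21.7% lower over all tested genes. Of 15 tested receptor tyrosine kinase genes, 9 rose and 4 fell from day 2 to 4, or 6 and 3 under quantile normalization. Ret, the GDNF receptor, went from 4.60 ± 0.541 to 42.7 ± 0.971 CPM (SD, n = 2, log2 change 2.97, adjusted p = 1.88e-11), Pdgfra rose by 2.46 (adjusted p = 3.64e-11), and Egfr by 1.03 (adjusted p = 2.99e-08). Of 23 tested ligand genes, 8 rose and 10 fell. The EGF receptor ligand gene Hbegf fell from 85.3 ± 6.43 to 9.81 ± 0.877 CPM (SD, n = 2, log2 change -3.00, adjusted p = 7.80e-10), whereas Igf1 rose by 2.87 (adjusted p = 2.22e-09) and Hgf by 2.03 (adjusted p = 1.73e-09).

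Of 18 tested other inhibitors of receptor signalling, 8 rose and 5 fell, shares near those over all tested genes (40.9% and 21.7%). The counts were 6 and 6 under median-of-ratios scaling. Errfi1, an ERK-induced inhibitor of the EGF receptor, fell by 1.62 (adjusted p = 8.02e-09) as Dusp5 did, and Lrig1, which promotes loss of EGF family receptors, rose by 1.08 (adjusted p = 2.11e-08) as the Sprouty genes did.

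The genes whose course over the 8 libraries was most like each of the 10 were found by Pearson's r of log2(CPM + 1) among 11026 genes. The 8 libraries fall on 4 days, so a high r can rest on few independent points, and it is given as a description. Dusp6 was most like Sfxn5 (r = 0.995) and Cadps (0.994), Spry4 like Cdca7 and Ephb4 (both 0.997), and Spry2 like Cmtm3 and Dkk3 (both 0.997). Spry1 was closest to Clasp2 and Mcm3 (both 0.988), and Spred1 to Prickle1 (0.989) and Pcdhga6 (0.988). For 2 members the closest genes included another phosphatase, Dusp7 for Dusp1 (0.985, after Layn at 0.995) and Dusp14 for Dusp4 (0.995, after Renbp at 0.996). Dusp5 was most like Cnn2 and Myo1c (both 0.999), Dusp10 like Ywhah (0.997), and Dusp15 like Cuedc1 (0.985) and Clcn2 (0.984).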

How the data were processed

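Per the labels, the 8 libraries came from TRIzol-isolated total RNA and were read on a BGISEQ-500. The submitters' processing notes name Trimmomatic 0.39, featureCounts without a version and the build mm10. Not given in the sources used here are the aligner, the annotation, the strandedness and the treatment of multiply matching reads. The authors deposited a table whose name speaks of TPM but whose values are CPM, since each column sums to 1000000 and every value is a multiple of 1 hundredth of the value of 1 read, a pattern that scaling by length would break. Whole reads made up 52.8% to 54.3% of the values above 0, within 0.02 hundredths of a read, so no count test was used. The step gives 19409936 to 20161021 counted reads a library, and a floor of 3 reads equals 0.149 to 0.155 CPM, for counting error only.

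Of 32108 identifiers, 32029 had a symbol in GENCODE M21. There were 0 columns of no sample. The filter kept 15358 genes that reached 1 CPM in 2 or more libraries. Their log2(CPM + 1) values were modelled in R 4.3.3 by limma 3.58.1 (lmFit, eBayes with an intensity trend), 1 coefficient per day, 4 residual degrees of freedom. Tests are two-sided, with Benjamini-Hochberg adjustment over all tested genes and calls at an adjusted p under 0.05. Log2 changes understate the fold of low genes, and folds are ratios of mean CPM. The fit was tested on simulated data. Tables and figures were made in Python 3.11.15 (matplotlib 3.10.9, numpy 2.4.6, pandas 2.3.3).

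The members and gene lists were chosen with earlier results of these data known, and no list is independent support. Named besides the members were up to 4 called genes of each list with the largest change per contrast, the 2 genes most correlated with each member (mean of at least 5 CPM), and Fos, Egr1, Etv4, Etv5, Phlda1, Ccnd1 and Mapk3. Not all genes that the rule took are reported here. Alternatives were a pseudocount of 0.1, no filter, a filter of 5 CPM, median-of-ratios scaling, quantile normalization, no intensity trend, a replicate block, leaving out each library, and fitting only the days compared.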

Additional observations from a re-analysis of the deposited data

How the results depend on the processing

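Of 934 values of the 10 genes under 16 alternatives, F tests included, 902 kept the side of the threshold and, outside the F tests, the direction. Of the rest, 18 lost a call, 7 gained one and 7 reversed. Of the reversed values 1 was called, and it was counted only as reversed. From day 2 to 4 all 10 genes were called in each alternative that tested them, and Dusp15 was not tested at 5 CPM. The count of members called from day 6 to 8 was 2, but 1 with a pseudocount of 0.1, with the 5 CPM filter, with median-of-ratios scaling, without the intensity trend and with only the days compared, 0 with no filter, 3 with quantile normalization (Spry4 joined, -0.32, adjusted p = 0.0498), and 0 to 2 without 1 library. Over all genes that contrast called 1399, but 344 with no filter, 533 without the trend and 398 to 1743 without 1 library, and day 4 against the other days called 6654, but 4236 to 6481 without 1 library, the lowest without replicate 2 of day 4. The reversals were near 0 except in Dusp15 between days 2 and 8. They were Dusp1 from day 6 to 8 (0.00467, with -0.177 to 0.186 without 1 library, and -0.017 without replicate 1 of day 6), Spry2 and Spred1 from day 6 to 8 (-0.141 to 0.00561 and -0.157 to 0.00954 without 1 library), Spry1 from day 2 to 8 (-0.26 to 0.0197 without 1 library) and Dusp15 from day 2 to 8 (0.12, but -0.0182 under median-of-ratios scaling and -0.307 under quantile normalization, adjusted p = 0.045). The cause was not tested.

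Scaling moved the split of all called genes. From day 2 to 4, 65.3% of calls were higher as deposited, 52.6% under median-of-ratios scaling and 47.1% under quantile normalization, and from day 4 to 6 the shares were 66.7%, 46.9% and 47.7%, and from day 2 to 8 67.2%, 50.9% and 45.1%. The median of all genes from day 2 to 8 was 0.17 as deposited, -0.00 and -0.05. Deviations of same-numbered libraries correlated at -0.10 to 0.21, which does not settle whether replicate numbers pair the samples. With the replicate block 10 members were called from day 2 to 4, 7 from day 4 to 6, 3 from day 6 to 8 (Spry4 joined, -0.29, adjusted p = 0.041) and 8 from day 2 to 8, and 9753 of all genes from day 2 to 4. With 2 libraries a day, small steps such as those from day 6 to 8 are the least certain.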
